A study of Homo sapiens with 12 samples.

Results

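Nuclear chromosomes carry copies of pieces of the mitochondrial genome, known as NUMTs, and annotations list the parts that resemble a mitochondrial gene as pseudogenes named after that gene. The pseudogene rows described here were the rows of the deposited count table whose name is that of a mitochondrial protein or rRNA gene followed by P and a number, with at least 24 counts summed over 12 libraries. Of 402 rows with such a name, 65 met this minimum, 100 had between 1 and 23 counts and 237 had 0 counts. The rule used the summed counts, so the levels of the 65 rows are a description and were not tested. The lowest sum inside the rule was 24 and the highest sum left out was 22. The arsenite and line effects, the position of each row and its likeness to the mitochondrial parent gene were not used by the rule.

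The libraries came from Huh-7.5, an established human hepatocellular carcinoma line, with the proximity-labelling peroxidase APEX2 in every group, as APEX-NES, APEX-NLS or APEX-G3BP1. NES usually stands for nuclear export signal and NLS for nuclear localization signal, while G3BP1 names a core component of stress granules. The 3 lines were each given either mock treatment or 45 minutes of 0.5 mM sodium arsenite, an oxidative stress, which made 6 groups of 2 numbered replicates. The comparisons address how RNA levels in these cells respond to that stress. The promoter of the constructs, whether a line is 1 clone, and whether replicates came from separate cultures are not given in the sources used here, so p-values measure only the spread between these libraries, which may be technical.

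Mitochondrial DNA encodes subunits of 4 enzymes of oxidative phosphorylation and the rRNAs of the mitochondrial ribosome. The ND genes encode subunits of complex I, CYB a subunit of complex III, the CO genes the core of complex IV (cytochrome c oxidase) and the ATP genes part of ATP synthase. A NUMT arises when a fragment of mitochondrial DNA is joined into a chromosome. The nuclear reading of the genetic code differs from the mitochondrial one, so the copies are not expected to make the parent's protein, and young copies remain so like the parent that short reads can align to both. Older copies have gathered substitutions, and reads from them can be placed.

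The likeness of a copy to its parent therefore sets what its counts can mean, and it differed widely among the 65 rows. In GENCODE release 29, which is annotated on GRCh38, they lay in 26 insertions, counting rows no more than 20000 bases apart as 1 insertion, and 16 insertions held at least 2 of the rows. An alignment to the parent gene was obtained for 63 rows (all but MTCO1P27 and MTND4P11). The 7 rows of the insertion at chr1:629062-634922 were 97.6% to 99.1% identical to their parents. The other rows had a median identity of 75.1% and a highest of 95.8%. Outside chromosome 1 the longest stretch without a difference had a median of 19 bases and a maximum of 91 bases, against 266 bases in MTND2P28 on chromosome 1.

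The sequences below, from GENCODE release 29 (GRCh38), are windows of 80 bases shown because they hold this contrast. Each pseudogene stands above the matching stretch of its parent, read 5′ to 3′ on the strand named, and capitals mark the positions at which the pair differ. The first pairs are those of the 2 chromosome 1 rows whose counts changed with arsenite, with 1 difference each.
MTND1P23, chr1:629081-629160, plus strand: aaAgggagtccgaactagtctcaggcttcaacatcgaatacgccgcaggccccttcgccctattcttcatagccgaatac
MT-ND1, chrM:3911-3990, plus strand: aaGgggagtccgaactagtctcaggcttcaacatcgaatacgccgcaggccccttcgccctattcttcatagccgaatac
MTND2P28, chr1:629827-629906, plus strand: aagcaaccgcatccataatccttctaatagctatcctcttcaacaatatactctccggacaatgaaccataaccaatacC
MT-ND2, chrM:4657-4736, plus strand: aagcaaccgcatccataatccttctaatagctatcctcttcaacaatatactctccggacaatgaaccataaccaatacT
MTND5P11, in the chromosome 5 insertion, is of middle likeness, with 6 differences in its window.
MTND5P11, chr5:134926344-134926423, minus strand: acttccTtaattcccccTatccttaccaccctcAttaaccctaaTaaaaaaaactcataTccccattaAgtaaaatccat
MT-ND5, chrM:12373-12452, plus strand: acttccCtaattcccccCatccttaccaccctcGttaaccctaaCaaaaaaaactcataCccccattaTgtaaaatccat
The older copies that changed with arsenite had between 18 and 22 differences in their windows. MTND3P23 had the largest fall, and MTND1P9 and MTCO1P28 the smallest adjusted p-values among the falls. MTND4P23 was the only riser outside chromosome 1.
MTND3P23, chr9:92110218-92110297, plus strand: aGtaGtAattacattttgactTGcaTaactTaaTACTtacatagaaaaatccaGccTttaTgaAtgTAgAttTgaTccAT
MT-ND3, chrM:10109-10188, plus strand: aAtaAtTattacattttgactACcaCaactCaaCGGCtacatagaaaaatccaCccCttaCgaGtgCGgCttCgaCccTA
MTND1P9, chr20:57358188-57358267, minus strand: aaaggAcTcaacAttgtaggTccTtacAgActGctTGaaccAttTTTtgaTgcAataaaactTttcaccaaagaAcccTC
MT-ND1, chrM:3409-3488, plus strand: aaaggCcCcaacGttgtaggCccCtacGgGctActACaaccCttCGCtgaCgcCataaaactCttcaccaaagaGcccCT
MTCO1P28, chr16:3368970-3369049, minus strand: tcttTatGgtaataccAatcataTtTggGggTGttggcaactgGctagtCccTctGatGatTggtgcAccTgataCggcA
MT-CO1, chrM:6103-6182, plus strand: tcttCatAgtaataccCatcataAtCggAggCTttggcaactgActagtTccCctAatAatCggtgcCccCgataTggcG
MTND4P23, chr2:201214579-201214658, minus strand: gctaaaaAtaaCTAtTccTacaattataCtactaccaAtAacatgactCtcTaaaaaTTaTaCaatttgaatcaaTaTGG
MT-ND4, chrM:10762-10841, plus strand: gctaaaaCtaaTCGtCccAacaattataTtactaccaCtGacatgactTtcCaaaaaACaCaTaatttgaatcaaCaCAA

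The 12 libraries held 1090308 to 1461067 counts, so that the smallest level taken as shown, 3 counts, was 2.08 to 2.88 CPM (counts relative to a common library total, scaled by TMM, edgeR's correction for library composition). Intervals and floors of this kind cover counting error only. Of the 14 hepatocyte or hepatoma markers checked, 10 reached 10 counts in a library and APOH was at 0. These markers summed to 285 to 423 counts in mock and 334 to 512 in arsenite libraries. The 5 fibroblast markers summed to 6 to 16 counts in mock and 41 to 73 in arsenite libraries, nearly all in COL3A1, with LUM at 0. The endothelial list summed to 0 to 14 and 3 to 10 counts, with VWF at 0, and the leukocyte list to 24 to 34 and 16 to 28. All of these are counts of rows, and whether they are RNA of the marker gene's own strand was not tested. The part of these markers in the results below was not tested.

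A row name in this table cannot be read as a transcript of that strand. The kit keeps the strand of the RNA, but how featureCounts was told to use it is not given in the sources used here. MT-ND6, the protein gene of the mitochondrial genome encoded on the other strand from the rest, had 8125 to 12331 counts per library. MT-ND5, the next most counted parent, had 2868 to 5639, and the rRNA rows MT-RNR1 and MT-RNR2 had 0 to 20 and 7 to 47. The RNA had been depleted of rRNA, and the part of this in the low rRNA rows was not tested. Below, the name of a pseudogene, of its parent or of any other gene denotes the counts of its row. Whether these counts are RNA of the named strand or of the opposite strand was not tested. Fewer cells with an RNA and less of it per cell cannot be told apart.

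The counted rows lay opposite other genes more often than the uncounted ones. Of the 65 rows, 41 (63.1%) overlapped another gene on the opposite strand only, 3 (4.6%) on the same strand only, 1 on both strands and 20 (30.8%) no other gene. Of the 237 rows with 0 counts, 33 (13.9%) lay opposite another gene only, 41 (17.3%) on its strand only and 163 (68.8%) apart from other genes. The rows with 1 to 23 counts lay between, with 30 of 100 opposite only, 14 on the same strand only and 53 apart. Most overlaps were with introns, since 6 of the 65 rows overlapped an exon of another gene: MTCO1P12, MTND4LP30, MTATP6P31, MTND5P28, MTCO2P12 and MTND4P19. This comparison follows the values that chose the rows and has no test.

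**Figure D1:**
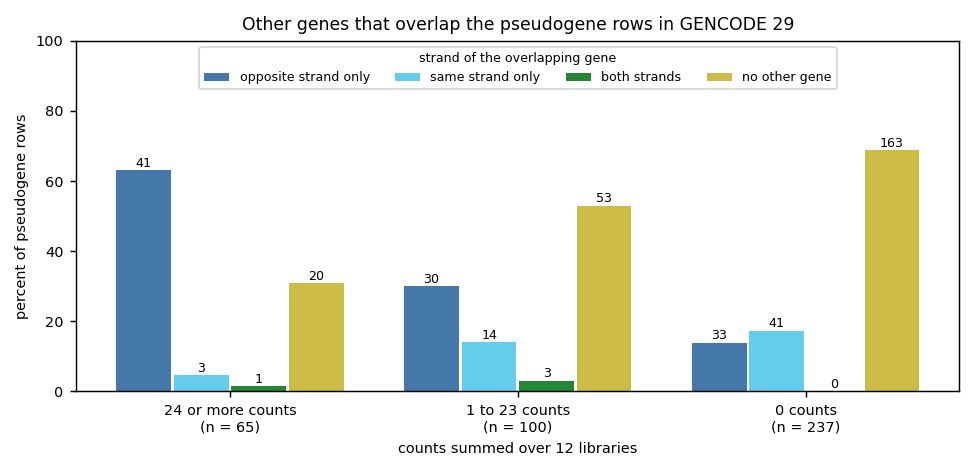
Percent of pseudogene rows (vertical axis) by the strand of any other gene that overlaps them, for rows with 24 or more, 1 to 23 or 0 counts summed over 12 libraries; the number of rows is above each bar. The blue bars, for rows lying opposite another gene only, fall from 63.1% to 13.9% from the left to the right group.

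The counts were unevenly spread over the rows. The 65 rows had 10699 counts in all, 33.7% of them in the 4 most counted rows, which all lie in the chromosome 1 insertion: MTCO1P12 with 1234, MTND1P23 with 1013, MTND2P28 with 732 and MTATP6P1 with 628. Per length, MTND1P23 was the most counted, with 2723 counts per kb over all libraries, and MTATP6P1 (922), MTND2P20 on chromosome 2 (843) and MTCO1P12 (799.7) followed. The parents had more, from 2848 counts per kb in MT-ND2 and 3979 in MT-ND1 to 28749 in MT-ND5 and 244120 in MT-ND6. By the gene copied, 39 rows were copies of complex I genes, 3 of CYB, 17 of complex IV genes and 6 of ATP synthase genes, and none of the 402 rows was named after an rRNA gene.

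In arsenite libraries the pseudogene rows made up a smaller share of all counts, with opposite movements inside and outside chromosome 1. They took 0.0730% ± 0.00457 of counts in mock and 0.0656% ± 0.00163 in arsenite libraries (SD, n = 6 each). The chromosome 1 rows took 0.0230% ± 0.00392 and 0.0268% ± 0.00152, with overlapping libraries. All other rows together took 0.05003% ± 0.00239 and 0.0388% ± 0.00253. Here the mock libraries lay between 0.0477% and 0.0540% and the arsenite libraries between 0.0360% and 0.0428%, without overlap. No test was made of these sums.

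Arsenite changed individual rows in both directions, with more falls than rises. Of the 65 rows, 38 passed edgeR's filter on low counts. The other 27 had at most 12 counts in any library and sums of 24 to 79. In the fit over all 12 libraries with line as a term (edgeR's quasi-likelihood test, Benjamini-Hochberg adjustment over 13108 genes, adjusted p under 0.05), 14 of the 38 changed, or 36.8%, against 38.0% of all genes tested. The share called was thus near the background. By direction, 3 rows rose (7.89%, background 19.4%) and 11 fell (28.9%, background 18.6%). The median log2 fold change of the 38 was -0.35, against -0.01 over all genes tested, and 26 of the 38 (68.4%) lay below 0, against 51.1% of all genes. Outside chromosome 1, 33 rows were tested, of which 1 rose and 11 fell, with a median of -0.44.

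**Figure D2:**
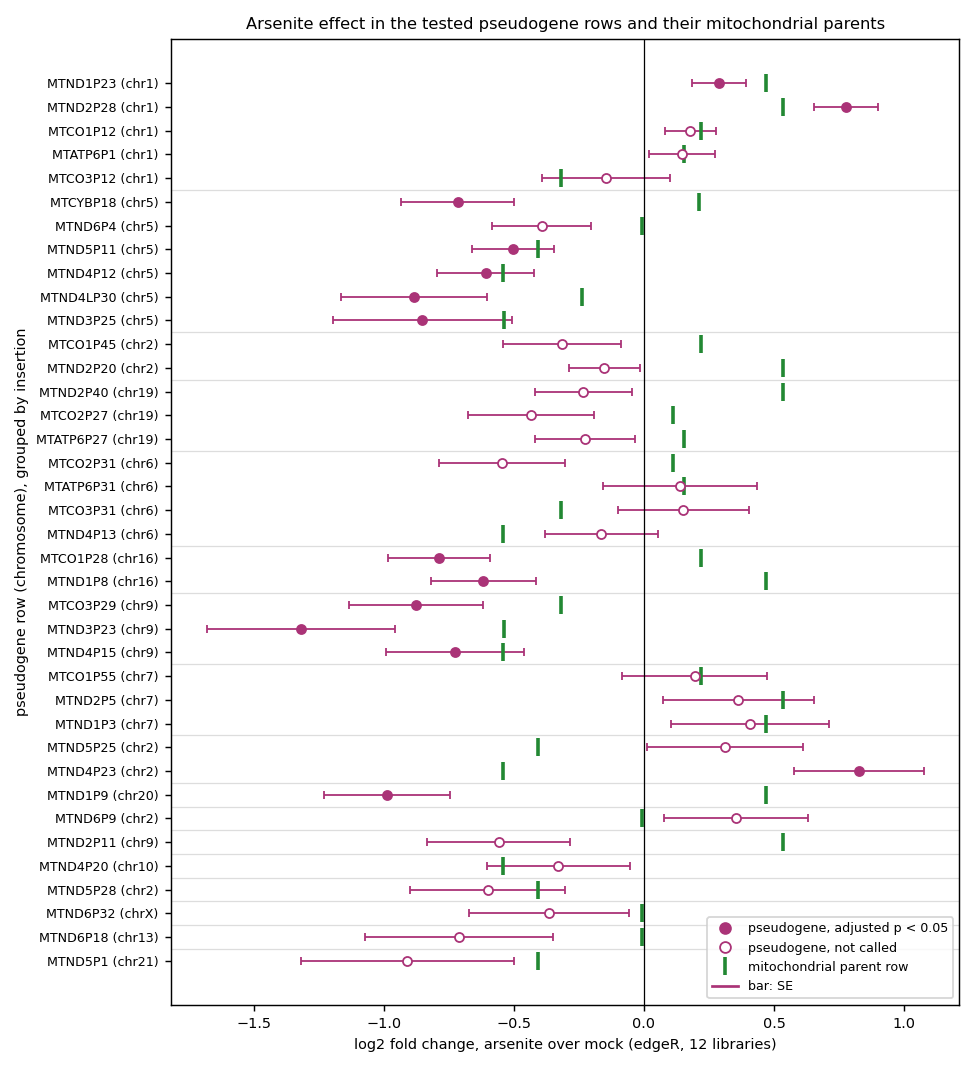
Log2 fold change of arsenite over mock (horizontal axis) for the 38 tested pseudogene rows, grouped by insertion, with the SE as bars; filled circles passed the adjusted p of 0.05 and green ticks are the mitochondrial parents in the same fit. Chromosome 1 rows lie near their parents, as do MTND1P3 and MTCO1P55 on chromosome 7. The ND1, CO1 and CYB copies on chromosomes 20, 16 and 5 lie left of parents that rose.

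By the enzyme whose gene was copied, 3 of 25 tested complex I copies rose (MTND2P28, MTND1P23 and MTND4P23) and 8 fell. The 1 tested CYB copy, MTCYBP18, fell. Of 9 tested complex IV copies, MTCO1P28 and MTCO3P29 fell and none rose. None of the 3 tested ATP synthase copies passed the test. The 14 called rows came from 6 insertions, and rows of 1 insertion share a locus and are not independent. All 14 lay opposite another gene only, a class that held 26 of the tested rows. The 10 tested rows with no other gene overlapping included no called row. Among all genes tested 38.0% were called. Both classes hold rows of few insertions, and the difference between them was not tested.

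The chromosome 1 insertion held 2 of the 3 rows that rose. It carries, in the order of the mitochondrial genome, MTND1P23, MTND2P28, MTCO1P12, MTCO2P12, MTATP8P1, MTATP6P1 and MTCO3P12, all on the plus strand opposite the long row ENSG00000230021. MTND2P28 (chr1:629640-630683), the copy of the complex I gene MT-ND2, had 37 and 37 counts in the NES mock libraries, 49 and 43 in the NLS and 47 and 48 in the G3BP1 mock libraries. After arsenite it had 79 and 68, 83 and 93, and 66 and 82 counts. In unscaled counts every arsenite library was above every mock library, which held for no other of the 65 rows. The library totals differ, and in CPM MTND1P9 and MTCO1P28 separated as well. The share of all genes that separate in this way was not counted. The log2 change of MTND2P28 was 0.78 (SE 0.122, edgeR adjusted p = 9.40e-08), and it stayed between 0.73 and 0.83 under all 19 alternatives tried.

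MTND1P23 (chr1:629062-629433), a copy of part of the complex I gene MT-ND1, rose less. Its mock libraries had 60 to 85 counts with a median of 76.5, and its arsenite libraries 84 to 105 with a median of 95.5. In unscaled counts the groups met only at their edges. In CPM they overlapped (61.0 ± 11.8 in mock and 73.7 ± 2.51 in arsenite libraries, SD), and G3BP1 mock 2 lay above every arsenite library. By line, the log2 fold change was 0.30 (SE 0.170) in NES, 0.56 (SE 0.176) in NLS and 0.01 (SE 0.171) in G3BP1. The log2 change was 0.29 (SE 0.103, edgeR adjusted p = 0.0188). Leaving out NLS mock 1 or NLS mock 2 ended the call (edgeR adjusted p = 0.0856 and 0.0586), and so did total-count scaling, no filter and DESeq2.

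The other chromosome 1 rows did not pass the test. MTCO1P12 (chr1:631074-632616), the copy of the cytochrome c oxidase gene MT-CO1, had 78 to 122 counts in mock and 91 to 141 in arsenite libraries. Its log2 fold change was 0.18 (edgeR adjusted p = 0.137), and it was called without G3BP1 mock 2 (0.27, edgeR adjusted p = 0.0290) or without G3BP1 arsenite 1 (0.25, edgeR adjusted p = 0.0351). MTATP6P1 (chr1:633696-634376), the copy of the ATP synthase gene MT-ATP6, had 40 to 61 and 47 to 68 counts and a log2 fold change of 0.15 (edgeR adjusted p = 0.382). MTCO3P12 had 160 counts in all and a log2 fold change of -0.15 (edgeR adjusted p = 0.681), while MTCO2P12 (65 counts) and MTATP8P1 (30 counts) were below the filter.

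The parents of these rows had log2 fold changes of the same sign. MT-ND1 rose by 0.47 (SE 0.0577), MT-ND2 by 0.53 (SE 0.0621) and MT-CO1 by 0.22 (SE 0.0540), all past edgeR's threshold. MT-ATP6 had 0.16 (edgeR adjusted p = 0.121), and MT-CO3 fell by 0.32 (SE 0.0514). The row on the opposite strand, ENSG00000230021, had 5111 to 8068 counts per library and rose by 0.20 (SE 0.0358). With identity this high, the counting could split reads between copy and parent, so the levels of the chromosome 1 rows are uncertain.

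Set against its parent library by library, each of the well-counted chromosome 1 rows kept a narrow ratio. MTND1P23 had 28.6% ± 3.45 of the counts of MT-ND1 in mock and 25.3% ± 1.12 in arsenite libraries (SD, n = 6 each). MTCO1P12 had 12.97% ± 1.54 and 12.6% ± 1.06 of MT-CO1, and MTATP6P1 had 27.6% ± 1.23 and 28.3% ± 5.08 of MT-ATP6. MTND2P28 had 22.2% ± 2.70 and 26.4% ± 2.59 of MT-ND2. Over the 12 libraries the highest ratio was 1.38 to 1.62 times the lowest in these 4 rows.

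A two-sided exact permutation test of the log2 ratio, 6 against 6 libraries, was run for the 38 tested rows after their values were seen. It exchanged libraries without regard to line, so differences between lines add to its spread. The unadjusted p was 0.0476 for MTND1P23 and 0.0325 for MTND2P28, with ratios moving in opposite directions, and 0.680 and 0.937 for MTCO1P12 and MTATP6P1. Leaving out 1 library moved the p of MTND1P23 above 0.05 in all but 2 of 12 cases (NLS mock 1 or 2 left out) and that of MTND2P28 in 6 of 12.

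**Figure D3:**
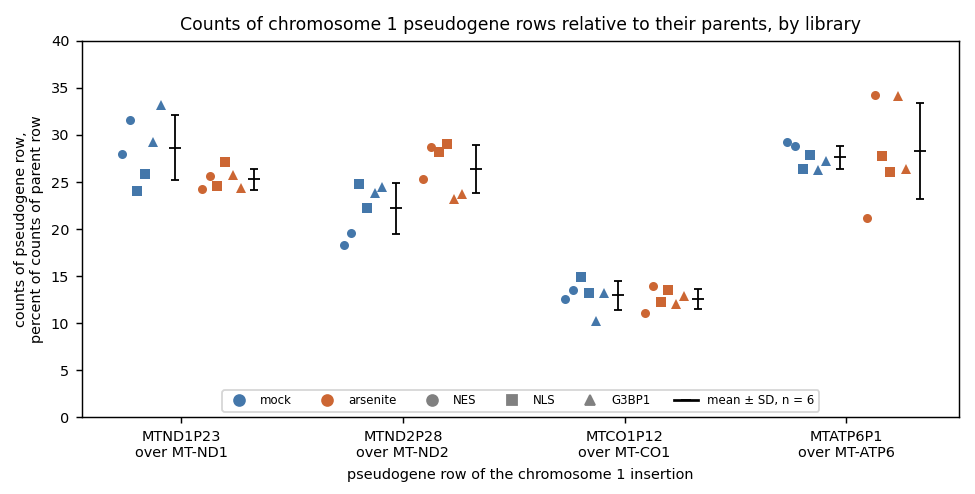
Counts of 4 chromosome 1 pseudogene rows as a percent of the counts of their mitochondrial parent rows (vertical axis, from 0), 1 point per library, with the mean ± SD of 6 libraries beside each treatment. MTCO1P12 sits between 10.3% and 14.9% of MT-CO1 in every library, and MTND2P28 is lowest in the NES mock libraries.

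The largest group of falls lay in the chromosome 5 insertion (chr5:134923303-134928527), inside the gene PCBD2, which encodes a pterin-4-alpha-carbinolamine dehydratase. It holds 6 rows, all tested. The 5 on the minus strand, opposite PCBD2, fell. The 1 on its strand, MTND6P4, had a log2 fold change of -0.39 and did not pass the test. A difference between MTND6P4 and the other 5 was not tested. Together the rows had 117 to 173 counts in mock libraries (median 126) and 76 to 124 in arsenite libraries (median 92), with NLS arsenite 1 as high as the middle of the mock libraries.

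MTND5P11 (chr5:134924648-134926459), the copy of MT-ND5, had 35 and 35 counts in the NES mock libraries, 39 and 35 in the NLS and 57 and 36 in the G3BP1 mock libraries. After arsenite it had 21 and 24, 41 and 29, and 27 and 35. The groups overlapped through NLS arsenite 1, and G3BP1 mock 1 stood far above the rest. It fell by 0.50 on the log2 scale (SE 0.157, edgeR adjusted p = 0.00702), and without G3BP1 mock 1 it was not called (log2 fold change -0.36, edgeR adjusted p = 0.0820).

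MTND4P12 (chr5:134926660-134928036), the copy of MT-ND4, had 21 to 34 counts in mock (median 26) and 15 to 23 in arsenite libraries (median 18.5). It fell by 0.61 (SE 0.186, edgeR adjusted p = 0.00576). MTCYBP18 (chr5:134923303-134924049), a copy of part of the cytochrome b gene, had 16 to 22 (median 20) and 10 to 18 counts (median 12) and fell by 0.72 (SE 0.216, edgeR adjusted p = 0.00513). In both rows the groups overlapped by few counts.

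The shortest copies of this insertion had fewer counts. MTND4LP30 (chr5:134928030-134928326), a copy of MT-ND4L, had 9 to 22 counts in mock and 4 to 11 in arsenite libraries and fell by 0.88 (SE 0.280, edgeR adjusted p = 0.00790). Without G3BP1 mock 1, which had the 22 counts, it was not called (edgeR adjusted p = 0.0710). MTND3P25 (chr5:134928393-134928527), a copy of part of MT-ND3 named here after its values were seen, had 4 to 13 and 1 to 12 counts and fell by 0.85 (SE 0.345, edgeR adjusted p = 0.0416). It was not called in 10 of 19 alternatives.

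MTND6P4 (chr5:134924123-134924644) is the copy of MT-ND6 and, like its parent, is inverted relative to its neighbours. It had 14 to 33 counts in mock and 16 to 28 in arsenite libraries, which overlapped over most of their range, and had a log2 value of arsenite over mock of -0.39 (SE 0.190, edgeR adjusted p = 0.0945). Without NES mock 2 it was called (-0.49, edgeR adjusted p = 0.0408). The parents of the chromosome 5 rows moved unequally. MT-ND5 fell by 0.41, MT-ND4 by 0.54, MT-ND3 by 0.54 and MT-ND4L by 0.24, whereas MT-CYB rose by 0.21 (all past edgeR's threshold) and MT-ND6 had -0.01. The PCBD2 row had 2 to 16 counts per library and a log2 fold change of -0.28 (edgeR adjusted p = 0.526).

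**Figure D4:**
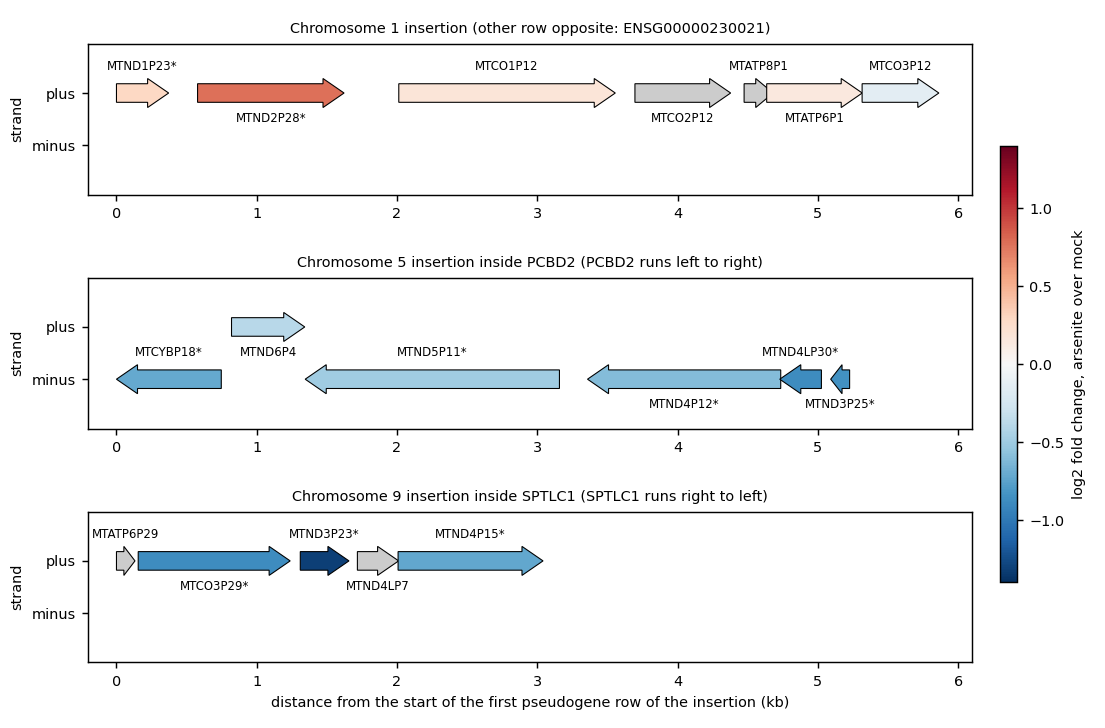
The pseudogene rows of 3 insertions drawn to scale (horizontal axis, kb from the start of the first row) on the plus or minus strand, coloured by the log2 fold change of arsenite over mock; grey rows were not tested and an asterisk marks an adjusted p under 0.05. The rows opposite PCBD2 and SPTLC1 that were tested are blue with an asterisk, and MTND6P4, on the strand of PCBD2, is blue without one.

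Inside SPTLC1, which encodes a subunit of serine palmitoyltransferase, the first enzyme of sphingolipid synthesis, an insertion on chromosome 9 (chr9:92108858-92111897) holds 5 rows opposite the gene. All 3 that were tested fell. Their insertion had 35 to 71 counts in mock (median 48) and 19 to 40 in arsenite libraries (median 28). The SPTLC1 row had 0 or 1 count per library. With the strand setting unknown, this does not show how much SPTLC1 RNA was present.

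MTND3P23 (chr9:92110168-92110514), a copy of MT-ND3, had 8 and 11 counts in the NES mock libraries, 11 and 13 in the NLS and 5 and 10 in the G3BP1 mock libraries. After arsenite it had 4 and 3, 4 and 8, and 3 and 2. NLS arsenite 2 lay within the mock range, and NES mock 1 and G3BP1 mock 1 within the arsenite range. It fell by 1.32 (SE 0.361, edgeR adjusted p = 0.00194), the largest fall among the called rows, at levels near the floor of 3 counts.

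MTCO3P29 (chr9:92109013-92110095), a copy of the complex IV gene MT-CO3, had 12 to 20 counts in mock and 5 to 12 in arsenite libraries. It fell by 0.88 (SE 0.258, edgeR adjusted p = 0.00402), and its groups met at 12 counts. MTND4P15 (chr9:92110865-92111897), a copy of MT-ND4 also named after its values were seen, had 9 to 22 and 6 to 13 counts and fell by 0.73 (SE 0.265, edgeR adjusted p = 0.0222). It was not called in 6 of 19 alternatives.

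On chromosome 16 both rows of an insertion (chr16:3367719-3370906) opposite the long row ENSG00000285329 fell. MTCO1P28 (chr16:3367719-3369246), a copy of MT-CO1, had 29 and 32 counts in the NES mock libraries, 20 and 24 in the NLS and 22 and 24 in the G3BP1 mock libraries, and 13 and 14, 20 and 17, and 14 and 13 after arsenite. In unscaled counts the groups touched at 20, in the NLS line. In CPM they lay just apart (20.5 ± 3.21 in mock and 11.8 ± 2.01 in arsenite libraries, SD, n = 6 each). It fell by 0.79 (SE 0.196, edgeR adjusted p = 5.90e-04), while its parent rose by 0.22.

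Its neighbour MTND1P8 (chr16:3369957-3370906), a copy of MT-ND1, had 15 to 26 counts in mock and 14 to 16 in arsenite libraries. It fell by 0.62 (SE 0.201, edgeR adjusted p = 0.00989), while DESeq2 gave an adjusted p of 0.0567. ENSG00000285329 had 31 to 56 counts in mock and 42 to 46 in arsenite libraries and a log2 fold change of 0.11 (edgeR adjusted p = 0.562).

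The remaining called rows lay opposite RAE1 and CASP10. MTND1P9 (chr20:57357426-57358369), a copy of MT-ND1, lies opposite RAE1, the gene of an mRNA export factor. It had 19 and 22 counts in the NES mock libraries, 17 and 21 in the NLS and 15 and 11 in the G3BP1 mock libraries, and 10 and 5, 10 and 10, and 9 and 11 after arsenite. In unscaled counts the groups touched at 11, in the G3BP1 line. In CPM they did not overlap (14.1 ± 2.42 in mock and 7.08 ± 1.45 in arsenite libraries, SD, n = 6 each). It fell by 0.99 (SE 0.242, edgeR adjusted p = 4.98e-04), whereas MT-ND1 rose by 0.47.

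MTND4P23 (chr2:201213298-201214660), a copy of MT-ND4 opposite CASP10, the gene of an initiator caspase, rose. It had 14 and 13 counts in the NES mock libraries, 8 and 7 in the NLS and 3 and 10 in the G3BP1 mock libraries, and 20 and 20, 15 and 23, and 8 and 15 after arsenite. The groups overlapped across lines. Its log2 fold change was 0.82 (SE 0.250, edgeR adjusted p = 0.00525), against a fall of 0.54 in MT-ND4. The other tested row of this insertion, MTND5P25, had a log2 fold change of 0.31 (edgeR adjusted p = 0.437). The RAE1 and CASP10 rows had 0 to 2 and 0 to 3 counts per library, with the same limit as the SPTLC1 row.

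**Figure D5:**
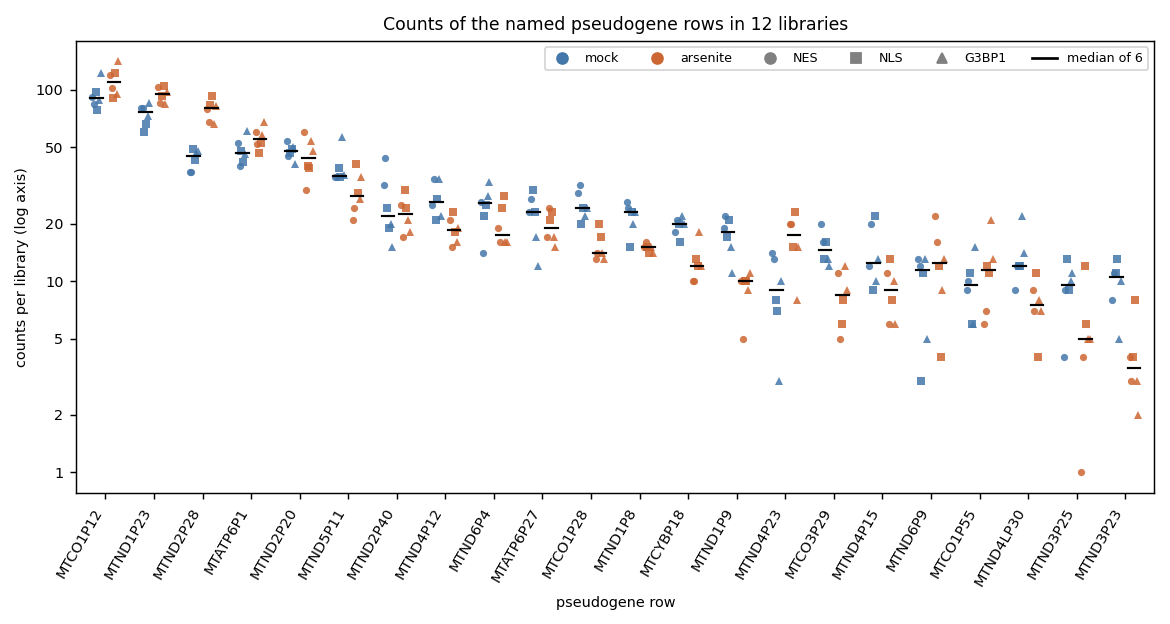
Counts per library (vertical axis, log scale) of the 22 named pseudogene rows, mock in blue and arsenite in orange, with the line given by the symbol and the median of 6 libraries as a black bar. In these unscaled counts MTND2P28 is the row whose treatments do not overlap, and the rows right of MTND4P12 mostly have fewer than 30 counts in a library.

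Among well-counted rows that did not change by the test were the copies on chromosomes 2 and 19. MTND2P20 (chr2:155264163-155264823), a copy of MT-ND2 with no other gene over it, had 41 to 54 counts in mock and 30 to 60 in arsenite libraries and a log2 fold change of -0.15 (edgeR adjusted p = 0.393). MTND2P40 (chr19:12502675-12504106) and MTATP6P27 (chr19:12506249-12508030), opposite ENSG00000196826 and ZNF709 rows with 0 or 1 count per library, had log2 fold changes of -0.23 in each (edgeR adjusted p = 0.331 and 0.368). MTND6P9 and MTCO1P55 had 0.36 and 0.19 (edgeR adjusted p = 0.321 and 0.615).

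Outside chromosome 1, copies of parents that rose with arsenite varied in their ratio to the parent. The ratio of MTND1P9 to MT-ND1 was 6.78% ± 1.59 in mock and 2.43% ± 0.474 in arsenite libraries (SD, n = 6 each), without overlap between 4.30% and 2.76%. The ratio of MTND1P8 to MT-ND1 went from 8.43% ± 1.29 to 3.998% ± 0.588, that of MTCYBP18 to MT-CYB from 1.18% ± 0.192 to 0.620% ± 0.143, and that of MTND2P20 to MT-ND2 from 24.3% ± 2.01 to 15.1% ± 3.18. These were the 4 of 38 ratios whose treatments did not overlap, and they were named for that after their values were seen. Other copies of the same parents overlapped widely: MTND1P3 had 2.83% ± 0.906 and 2.70% ± 0.472 of MT-ND1, and MTND2P5 had 4.26% ± 1.39 and 3.81% ± 1.51 of MT-ND2. MTCO1P55 had 1.31% ± 0.400 and 1.36% ± 0.720 of MT-CO1. Of the copies of parents that fell, 2 chromosome 5 rows also overlapped widely. MTND5P11 had 0.830% ± 0.228 and 0.780% ± 0.225 of MT-ND5, and MTND4P12 had 1.91% ± 0.648 and 1.80% ± 0.441 of MT-ND4. MTND4P23 went from 0.632% ± 0.321 to 1.65% ± 0.672 of MT-ND4. In all, 15 of the 38 ratios had an unadjusted p under 0.05 in the exact permutation test. Several rows share a parent or an insertion, so the 38 ratios are not independent. No p adjusted over these rows alone is given, since the rows were chosen with earlier results known. Part of each difference is the parent's own change, which is given above.

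Within single lines fewer rows passed the test. All of the next contrasts share 1 estimate of spread from 12 libraries, with 2 against 2 libraries in each. In NES, 4 of 38 rows changed (background 20.3%). MTND2P28 rose (log2 fold change 1.05, SE 0.216, background of rises 10.9%), and MTCO1P28 (-1.10, SE 0.329), MTND1P9 (-1.37, SE 0.424) and MTND2P40 (-0.79, SE 0.287) fell (background of falls 9.41%). In NLS, 3 rows rose (background of all calls 17.8%, of rises 9.67%, of falls 8.14%). They were MTND2P28 (0.84, SE 0.201), MTND1P23 (0.56, SE 0.176) and MTND4P23 (1.24, SE 0.437). The count in NES fell to 1 without NES mock 2 and to 2 without either NES arsenite library. That in NLS fell to 1 without NLS mock 1, NLS mock 2 or NLS arsenite 2, and DESeq2 called 1 row in each of these lines.

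In G3BP1, 5 rows fell and none rose (background of all calls 16.4%, of rises 9.22%, of falls 7.15%). They were MTND6P4 (-1.11, SE 0.317), MTND4LP30 (-1.44, SE 0.452), MTND5P11 (-0.77, SE 0.252), MTND4P12 (-0.86, SE 0.319) and MTCO1P28 (-0.95, SE 0.349). The first 4 lie in the chromosome 5 insertion. Without G3BP1 mock 1 or G3BP1 arsenite 2, 1 row was called in this line. Without G3BP1 arsenite 1, 2 were called, and without G3BP1 mock 2 or NES arsenite 2, 3. DESeq2 called none.

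A test of whether the arsenite effect differs among lines called none of the 38 rows with edgeR (background 0.183%) or DESeq2, and 3 had an unadjusted edgeR p under 0.05. MTND6P4 was one of them (unadjusted p = 0.0205, edgeR adjusted p = 0.472), with line-specific log2 fold changes of -0.13, 0.06 and -1.11 in NES, NLS and G3BP1. The effects called in 1 line are therefore not shown to be absent from another. All 14 rows called on average had effects of 1 sign across the 3 lines, as did 25 of the 38 tested. The call rests on the average of these same effects, so agreement in sign among called rows is largely fixed in advance. It is a description only, and the share over all genes was not counted.

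The lines also differed over both treatments in a few rows. Between NLS and NES, 1 of 38 rows was called (background 10.9%, 4.82% higher and 6.13% lower). MTND6P9 (chr2:155313440-155313958), a copy of MT-ND6 apart from other genes, had 12 to 22 counts in NES and 3 to 12 in NLS libraries and was lower in NLS, at a log2 difference of -1.11 (SE 0.339, edgeR adjusted p = 0.0183). DESeq2 called no row here, nor did edgeR without NES arsenite 1, NLS mock 1 or NLS arsenite 2, and edgeR called 2 rows without NES mock 2. With mock libraries only MTND6P9 was not called, and the 1 row called was higher in NLS.

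In G3BP1 against the mean of NES and NLS, 4 of 38 rows were higher and none lower (background 28.7%, 15.3% higher and 13.4% lower). This comparison shares its NES and NLS libraries with the last one. MTCO1P12 had 97.7 ± 16.5 CPM in G3BP1, 77.0 ± 12.4 in NES and 72.5 ± 10.9 in NLS libraries (SD, n = 4 each), a log2 difference of 0.39 (SE 0.101, edgeR adjusted p = 0.00139). MTATP6P1 had 51.0 ± 5.21, 39.7 ± 6.44 and 35.4 ± 2.34 CPM, a log2 difference of 0.44 (SE 0.133, edgeR adjusted p = 0.00648). Their parents MT-CO1 and MT-ATP6 were higher in G3BP1 by 0.50 and 0.39 in the same fit.

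MTND5P11 had 27 to 57 counts in G3BP1, 21 to 35 in NES and 29 to 41 in NLS libraries, a log2 difference of 0.49 (SE 0.164, edgeR adjusted p = 0.0169). The 57 counts were in G3BP1 mock 1, which stood far above the other mock libraries (54.8 CPM, others 25.8 to 33.1 CPM). MTCO1P55 (chr7:141801315-141802059), a copy of MT-CO1 apart from other genes, had 6 to 21, 6 to 10 and 6 to 12 counts, a log2 difference of 0.81 (SE 0.285, edgeR adjusted p = 0.0223). With G3BP1 mock 2 left out, 1 row was called in this comparison. With mock libraries only 8 of 35 tested rows were called, 7 higher and 1 lower in G3BP1, and 3 of the 4 rows above were among them.

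The parents and the genes that maintain and read mitochondrial DNA are given for comparison. Of the 15 mitochondrial rRNA and protein rows, all tested, 5 rose (33.3%, background 19.4%) and 5 fell (33.3%, background 18.6%) with arsenite. Their median log2 fold change was 0.11. In G3BP1, 10 were higher than in the mean of the other lines (66.7%, background 15.3%). Of 34 nuclear genes of mitochondrial DNA and RNA upkeep, 32 were in the table and 12 were tested. The row of GRSF1, an RNA-binding protein of mitochondrial RNA granules, rose by a log2 fold change of 1.12 (SE 0.348). The row of MTERF2, a protein of the mitochondrial transcription termination factor family, rose by 0.41 (SE 0.111). That of POLG, the catalytic subunit of the mitochondrial DNA polymerase, rose by 0.19 (SE 0.0499). As for the pseudogenes, the strand of the RNA behind these counts was not tested. These 3 rises were 25% of the 12, near the background of 19.4%. None of the 12 fell (background 18.6%), and their median was 0.04. Rows of the MTRNR2L family, nuclear copies of part of the 16S rRNA gene, were not among the rows analysed.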

How the data were processed

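RNA of 12 Huh-7.5 libraries was analysed from 1 table of raw counts per gene that the authors deposited, with 61255 rows. Trizol-extracted RNA was depleted of rRNA and made into libraries with NEB's NEBNext Ultra II Directional reagents, which keep strand, per the labels' protocols. Trim Galore, Subread, featureCounts, edgeR and the build GRCh38.p13 are named per the submitters' processing notes. The strand setting, the gene annotation and the treatment of reads that align to several places are not given in the sources used here. The table has 4 columns that no label matches, and these were left out throughout.

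All 402 rows with a matching name were matched by gene symbol or identifier to GENCODE release 29 (GRCh38), from which coordinates, overlaps and sequences were taken. Rows were aligned to their parents with BLAST+ 2.17.0. Counts were tested with edgeR 4.0.16 in R 4.3.3 (TMM, filterByExpr with a minimum count of 10 and a minimum total of 15, quasi-likelihood F test, Benjamini-Hochberg adjustment over 13108 genes, adjusted p under 0.05). The average arsenite effect and the line differences came from line and treatment as additive terms (8 residual degrees of freedom), and effects within lines and their difference from 1 mean per group (6). Ratios to the parent used counts plus 0.5 on the log2 scale, with an exact permutation test in scipy 1.17.1. The fitting steps were tested on simulated data.

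All 6 replicate pairs differed beyond counting noise (chi-square over genes reaching 20 counts in a pair). Alternatives were DESeq2 1.42.0 and its size factors, total-count scaling, no filter, a mean of at least 1 CPM, the replicate number as a block, fits of single lines or mock libraries, and leaving out each library. Rows named with values were the 12 with most counts, up to 12 called with arsenite by smallest p, and up to 10 called in each line comparison and in the test of the difference among lines. The rows and lists were chosen with earlier results of these data known.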

Additional observations from a re-analysis of the deposited data

Results flagged for a closer look

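The 22 named rows and the share of counts were checked in the 6 libraries of each treatment, 46 groups of values in all. In 4 of them the gap between 1 library and its nearest neighbour took up more of the range than the critical value of Dixon's test. Chance flags about 1 in 20 such groups. In mock libraries G3BP1 mock 1 stood above the rest in 2 rows, with 48.04 CPM of MTND2P20 (others 34.9 to 39.8 CPM) and 54.8 CPM of MTND5P11 (others 25.8 to 33.1 CPM). In arsenite libraries NLS arsenite 2 had 5.54 CPM of MTND3P23 (others 1.58 to 3.03 CPM). G3BP1 arsenite 1 had 15.4 CPM of MTCYBP18 (others 7.16 to 9.85 CPM). Without G3BP1 mock 1 the fall of MTND5P11 no longer passed the threshold. MTND3P23 and MTCYBP18 were called in all 19 alternatives, including those without these libraries.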

How the results depend on the processing

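Every average arsenite effect named as called kept its direction under all 19 alternatives. The counts of called rows changed as follows. Without any filter 1 row was called in NLS and 3 in G3BP1, and with a mean of at least 1 CPM 3 in G3BP1. DESeq2 called 10 rows on average, 1 in NES, 1 in NLS, 0 in G3BP1, 0 between NLS and NES and 2 between G3BP1 and the other lines. With mock libraries only, 8 rows differed between G3BP1 and the others, 7 higher and 1 lower, with 3 of the 4 rows called over both treatments among them. Leaving out 1 library gave 11 to 15 called rows on average, 1 to 5 in NES, 1 to 3 in NLS, 1 to 5 in G3BP1, 0 to 2 between NLS and NES, and 1 to 5 between G3BP1 and the others. The cause of these changes was not tested. MTCO1P55, not called, turned from a log2 fold change of 0.19 to -0.016 without G3BP1 mock 1 and to -0.0058 without G3BP1 arsenite 1, and reached 0.31 without G3BP1 mock 2. Without its most counted row the share of counts was 0.0654% in mock and 0.0573% in arsenite libraries, and with no minimum of counts 0.0698% in arsenite libraries.

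Same-numbered mock and arsenite libraries showed no common deviation (correlation of deviations over 6521 genes, Pearson's r -0.0562 for NES, -0.0139 for NLS, 0.00907 for G3BP1), and the numbers were not taken as pairs. With the replicate block 14 rows were called on average, as without it, and 4 in NES, 3 in NLS and 5 in G3BP1. Total-count scaling also gave 14 called rows, 2 higher and 12 lower, of which 13 were among the 14. Depth limits what can be shown: 27 of 65 rows were too low to test, and several called rows had fewer than 20 counts in every arsenite library.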
